A study of Apis mellifera with 12 samples.

Results

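The ovaries of caged honey bee (Apis mellifera) queens, which had laid until a cage stopped them, were set against the ovaries of virgin queens, which had never laid. All circular RNAs (circRNAs) that passed a filter on low counts were compared, which was 3215 of the 20244 in the deposited table, in 3 caged and 3 virgin libraries of the 12 in the series. The caged queens were kept in a cage inside their original colony for 7 days and sampled at the end of that time. The virgin queens had no treatment. The other 6 libraries came from 3 samples of normally laying queens and 3 of released queens, which had been caged for 7 days and were laying again on day 8. They enter here for the estimate of the spread and as levels set beside the comparison. Every library was made in the same way from ovaries, with linear RNA digested. The labels give no age, mating status or colony of origin for these queens, so laying history cannot be told apart from age or mating. Whether each sample was a queen of its own is not stated either.

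A circRNA is a closed loop of RNA that forms when the end of an exon is joined backwards to the start of the same or an upstream exon, a reaction called back-splicing. Loops have no free ends, resist exonucleases and outlast most linear transcripts, so their level reflects both how fast a gene is transcribed and back-spliced and how long the loops stay in cells that do not divide. A queen's ovary is a bundle of tubes called ovarioles, each a line of follicles in which an oocyte is fed by nurse cells inside a layer of follicle cells. In a virgin queen the follicles are not growing yolky eggs, after mating and the start of laying the ovarioles fill with growing and mature oocytes, and a queen that is confined stops laying while her ovary has already been through this change. In bulk tissue, fewer cells of a type and less RNA per cell cannot be told apart. No host genes are given in the table, so circRNAs are named by their identifiers and by their place in the Amel_4.5 genome, where LG is a linkage group, that is, a chromosome. No cell type marker could be checked.

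The caged libraries held 206697, 170382 and 176237 circRNA reads, and the virgin libraries held 201414, 66487 and 119117. Across all 12 libraries the tested circRNAs took up 91.8% to 96.7% of the reads. Levels are counts scaled to a common total of circRNA reads per library (counts per 1000000, CPM), so each level is relative to the other circRNAs of its library and not to the ovary's total RNA. Between single libraries, log2(CPM + 1) over the tested circRNAs correlated at 0.71 to 0.75 within the caged group and at 0.68 to 0.77 within the virgin group, against 0.47 to 0.57 for a caged with a virgin library. These values run across circRNAs, which are not independent replicates. Caged libraries correlated with laying and released ones at 0.64 to 0.72, above every caged with virgin pair.

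The caged and the virgin ovary held many circRNAs at different levels, abundant ones among them. In edgeR's quasi-likelihood test over all 12 libraries, with a Benjamini-Hochberg adjusted p under 0.05, 687 of 3215 circRNAs (21.4%) were called. Of these, 431 (13.4% of those tested) were higher in caged ovaries and 256 (7.96%) were lower. Reads moved with them, since the circRNAs called higher took up 44.7 ± 1.26% of the reads in caged libraries and 16.3 ± 1.28% in virgin libraries, while those called lower took up 7.57 ± 0.452% in caged and 26.5 ± 0.795% in virgin libraries (SD, n = 3 each). Those shares describe circRNAs that were chosen by this same contrast. The circRNAs with no call took up 43.2 ± 1.02% of the reads in caged and 49.6 ± 0.319% in virgin libraries.

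The split between the directions depended on the scaling. The TMM factors, which correct each library for its composition, were 0.92 to 0.95 in the caged and 1.01 to 1.23 in the virgin libraries. With library totals in their place the median log2 fold change of all tested circRNAs moved by -0.23, and the calls became 330 higher and 352 lower. The total was lowest, at 456, without virgin replicate 3. All 3 caged libraries lay above or below all 3 virgin libraries in 1368 tested circRNAs (42.6%), and this held for 398 of the 431 called higher and 250 of the 256 called lower. A further 720 circRNAs with no call also separated the groups, with the caged libraries on top in 243 and below in 477. Separation was judged on CPM, which use library totals, while the calls use TMM scaling. The split into 243 and 477 thus depends on the scaling too, and it was not recounted after TMM. The filter was passed by 490 of the tested circRNAs only through the laying or released libraries, and 6 had no reads in any caged or virgin library.

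**Figure D1:**
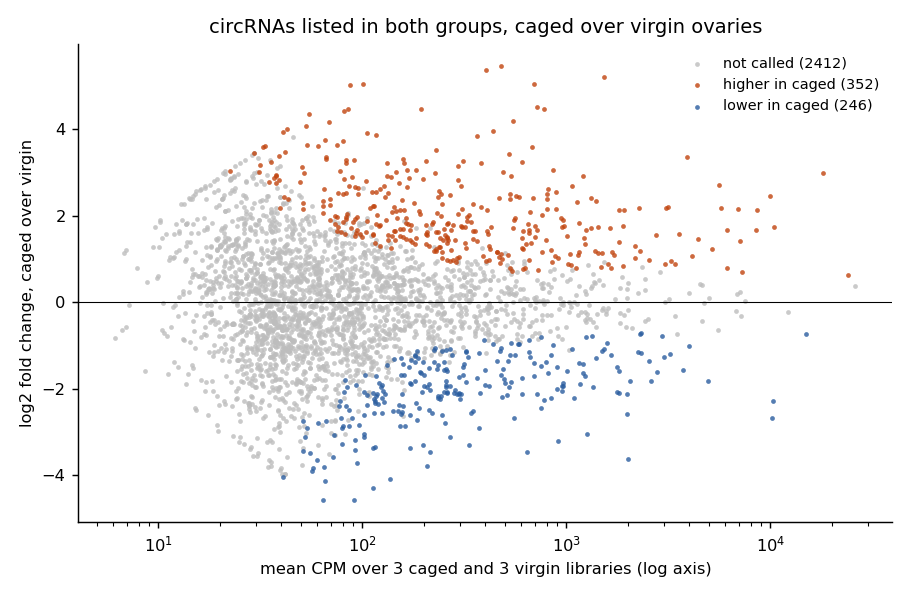
Log2 fold change of caged over virgin ovaries (TMM scaling, edgeR) against mean CPM over the 6 libraries (log axis), one point per tested circRNA listed in both groups. The 352 called higher (red) and 246 called lower (blue) run through the whole range of levels, up to the most abundant circRNAs at the right.

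Most of the calls were several-fold differences. Among the 352 circRNAs called higher that were listed in both groups, the median log2 fold change was 1.88, with 160 over 4-fold and 16 over 16-fold. Among the 246 called lower and listed in both groups the median was -1.95, with 119 over 4-fold and 6 over 16-fold. Over all tested circRNAs the median was 0.11. The medians of the called lists are of circRNAs chosen by the same test, in which small differences are harder to call. Their size is thus set in part by the threshold. Changes reached the top of the list of levels too, because of the 20 most abundant circRNAs over the 6 libraries 10 were higher in caged ovaries, 3 were lower and 7 had no call. Of the 100 most abundant, 38 were higher and 25 lower, beside 13.4% and 7.96% of all tested circRNAs. A difference is easier to call where reads are many. The median level over the 6 libraries was 174 CPM for those called higher, 244 CPM for those called lower and 51.6 CPM for those with no call.

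The leading loops per direction, by level and by fold change, were taken from called circRNAs whose caged and virgin libraries do not overlap. Their separation was thus a condition for naming them and is not a result. The most abundant circRNA of the caged ovary was ame_circ_0011734, which spans 16232 nt on LG2 (4758065 to 4774296, plus strand). It stood at 28351, 37023 and 28802 CPM in caged libraries, against 2060, 8618 and 3837 CPM in virgin libraries. Every caged library was thus more than 3 times as high as the highest virgin one, and the virgin libraries spread widely among themselves. Its log2 fold change was 2.98 ± 0.35 (SE), or 7.87-fold (edgeR, adjusted p = 4.4e-06), and 3.63 without virgin replicate 2, the highest of the virgin libraries. Laying libraries averaged 38403 CPM and released libraries 33388 CPM, both near the caged mean of 31392 CPM.

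Other loops that dominated the caged ovary came from LG15, LG8 and the same stretch of LG2. On LG15, ame_circ_0006346 (5368191 to 5375154, minus strand) had 20291, 12777 and 16489 CPM in caged libraries and 5064, 1639 and 3383 CPM in virgin libraries. It was 5.44-fold higher (log2 2.44 ± 0.40, edgeR adjusted p = 0.00014). Its laying and released means, 7905 and 11027 CPM, lay between those of the caged and the virgin group. A second LG15 circRNA, ame_circ_0006312, spans 393 nt on the plus strand (5011343 to 5011735). It had 21776, 16903 and 7842 CPM in caged libraries and 5913, 6498 and 3685 CPM in virgin libraries, and was 3.35-fold higher (edgeR adjusted p = 0.00186). Caged replicate 3 came close to the virgin range, and the laying mean of 24656 CPM was above the caged mean of 15507 CPM.

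On LG8, ame_circ_0019210 (8553987 to 8568048, minus strand) had 10213, 12478 and 17879 CPM in caged libraries and 3312, 3625 and 3811 CPM in virgin libraries, a 4.35-fold difference (edgeR adjusted p = 3.16e-06). A longer loop with the same first position, ame_circ_0019211 (8553987 to 8600528), had 9028, 10359 and 13544 CPM in caged libraries and 2577, 3399 and 2628 CPM in virgin libraries, 4.45-fold higher (edgeR adjusted p = 4.88e-06). Both spread among caged libraries, with caged replicate 3 on top, and were tight among virgin ones. On LG2, ame_circ_0011722 (4699241 to 4701723, plus strand) had 19584, 8751 and 9272 CPM in caged libraries and 5988, 3128 and 4340 CPM in virgin libraries (3.15-fold higher, edgeR adjusted p = 0.00256). Its caged replicate 1 stood at about the level of the other caged libraries summed.

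Among the circRNAs that the caged ovary held at lower levels, ame_circ_0017314 on LG7 (1604032 to 1622820, plus strand) showed the widest gap at high abundance. It had 2637, 2788 and 1912 CPM in caged libraries, against 18668, 15808 and 19493 CPM in virgin libraries. No caged library came near the level of the virgin ones, where it was among the leading loops. The log2 fold change was -2.68 ± 0.28, a 6.41-fold difference (edgeR adjusted p = 1.43e-06). Laying and released means were 2086 and 2063 CPM, close to the caged mean of 2446 CPM.

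Shorter loops on LG1, LG15 and LG11 were lower as well. On LG1, ame_circ_0008042, which spans 688 nt (1120279 to 1120966, plus strand), had 3924, 2577 and 2877 CPM in caged libraries and 18405, 15973 and 18033 CPM in virgin libraries. It was 4.86-fold lower (edgeR adjusted p = 2.09e-06). On LG15, ame_circ_0006273, a loop of 343 nt (4552042 to 4552384, minus strand), had 2530, 1021 and 2292 CPM in caged libraries and 8177, 7340 and 8152 CPM in virgin libraries, and was 3.52-fold lower (edgeR adjusted p = 0.000329). On LG11, ame_circ_0002745 (2179166 to 2180541, plus strand) had 1364, 1731 and 1929 CPM in caged libraries and 4632, 5670 and 6926 CPM in virgin libraries, 2.96-fold lower (edgeR adjusted p = 4.89e-05). The laying and released means of these loops were between 1314 and 3249 CPM.

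The most abundant circRNA called lower, ame_circ_0009157 on LG1 (21227866 to 21228686, minus strand), differed by less. It had 10194, 9919 and 10440 CPM in caged libraries and 19472, 21523 and 17554 CPM in virgin libraries. The caged libraries lay within 5% of their mean of 10184 CPM, well below the lowest virgin library. After TMM scaling the difference was 1.66-fold (log2 -0.73 ± 0.21, edgeR adjusted p = 0.0159), and the call was lost without the low-count filter (adjusted p = 0.0961) and without caged replicate 2 (0.0784), caged replicate 3 (0.0514) or virgin replicate 2 (0.0525). On LG10, ame_circ_0000920 (123221 to 124872, minus strand) had 2545, 2166 and 2627 CPM in caged libraries and 6961, 3053 and 6699 CPM in virgin libraries. It was 2.03-fold lower (edgeR adjusted p = 0.0185), with virgin replicate 2 near the caged range, and had no call without caged replicate 2 (0.0868), virgin replicate 1 (0.0985) or virgin replicate 3 (0.078).

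**Figure D2:**
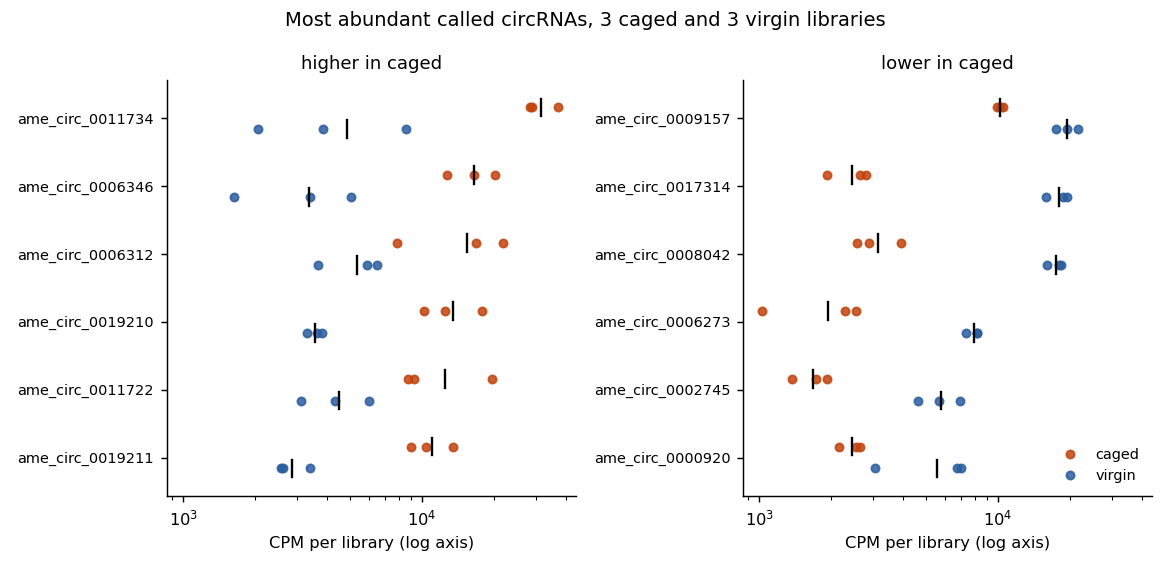
CPM per library (log axis) of the 6 most abundant called circRNAs in each direction whose libraries do not overlap, caged (red) above virgin (blue), with a bar at each group's mean. In the left panel ame_circ_0011734 reaches 28351 to 37023 CPM in caged libraries, and in the right panel ame_circ_0017314 and ame_circ_0008042 lie between 1912 and 3924 CPM in caged libraries and between 15808 and 19493 CPM in virgin libraries.

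The largest fold differences among circRNAs read in all 6 libraries were found in loops of moderate level. On LG2, ame_circ_0011802 (4820556 to 4820912, plus strand) had 1959, 4830 and 1997 CPM in caged libraries and 19.9, 256 and 75.6 CPM in virgin libraries. It was 36.5-fold higher (log2 5.19 ± 0.57, edgeR adjusted p = 2.38e-06). Virgin libraries differed more than 10-fold among themselves, and the log2 fold change was 6.26 without virgin replicate 2 and 4.51 without virgin replicate 1. On the unplaced scaffold GL634653.1, ame_circ_0000647 (5432 to 6387, minus strand) had 943, 2013 and 1067 CPM in caged libraries and 19.9, 30.1 and 92.3 CPM in virgin libraries, 32.7-fold higher (edgeR adjusted p = 1.65e-07), with a log2 fold change of 5.03, or 5.94 without virgin replicate 3. On LG9, ame_circ_0019528 (10843189 to 10843584, plus strand) had 1427, 2007 and 1004 CPM in caged libraries and 79.4, 105 and 50.4 CPM in virgin libraries, 21.9-fold higher (edgeR adjusted p = 6.47e-08). In caged ovaries these loops stood far above the median level of the tested circRNAs, 65.8 CPM over the 6 libraries, and in virgin ovaries they were around it. The last of them, ame_circ_0011737 of the LG2 stretch (4758065 to 4797638), had 731, 769 and 1543 CPM in caged libraries and 34.8, 165 and 33.6 CPM in virgin libraries. It was higher by 4.18 on the log2 scale (edgeR adjusted p = 4.58e-06), or 5.02 without virgin replicate 2. On the virgin side these folds rest on few reads. They were 4, 17 and 9 for ame_circ_0011802 and 4, 2 and 11 for ame_circ_0000647. For ame_circ_0019528 they were 16, 7 and 6, and for ame_circ_0011737 they were 7, 11 and 4.

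In the other direction, ame_circ_0004003 on LG12 (9899841 to 9900083, plus strand), a loop of 243 nt, had 213, 305 and 267 CPM in caged libraries and 3063, 4602 and 3618 CPM in virgin libraries. It was 12.3-fold lower (log2 -3.62 ± 0.28, edgeR adjusted p = 6.47e-08), and no virgin library came within 10-fold of any caged one. On LG8, ame_circ_0018906 (6608007 to 6610025, plus strand) had 14.5, 35.2 and 22.7 CPM in caged libraries and 367, 391 and 411 CPM in virgin libraries, 13.8-fold lower (edgeR adjusted p = 0.000113). On LG5, ame_circ_0015723 (9321483 to 9342234, minus strand) had 38.7, 135 and 108 CPM in caged libraries and 983, 1218 and 1368 CPM in virgin libraries (edgeR adjusted p = 2.38e-06). A further loop, ame_circ_0018341 on LG8 (2460359 to 2464704, minus strand), had 14.5, 35.2 and 45.4 CPM in caged libraries and 427, 376 and 395 CPM in virgin libraries (edgeR adjusted p = 8.47e-05). Laying and released means of these 4 loops were low as well, at 21.3 to 441 CPM. On the caged side some folds rest on few reads, at 3, 6 and 4 for ame_circ_0018906 and 3, 6 and 8 for ame_circ_0018341. For ame_circ_0015723 the caged reads were 8, 23 and 19, and for ame_circ_0004003 they were 44, 52 and 47.

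Some circRNAs were listed in one group and at 0 in every library of the other. Since the smallest count in the table above 0 is 2, a 0 is not a measured absence, and no fold is given for them. Listed at 0 in all virgin libraries were 171 tested circRNAs that had reads in caged ones, and 79 of these were called higher. Listed at 0 in all caged libraries were 28 tested circRNAs that had reads in virgin ones, and 10 of these were called lower. The counts for the directions are not like for like. The filter let in 490 circRNAs only through laying or released libraries, which correlated better with caged than with virgin ones. Virgin replicates 2 and 3 also held fewer reads than any caged library, so a 0 is likelier there. The most abundant of those called higher were ame_circ_0011729 on LG2 (4699241 to 4797638, plus strand), at 160, 176 and 227 CPM in caged libraries, ame_circ_0009223 on LG1 (21752928 to 21757595, minus strand), at 135, 211 and 187 CPM, and ame_circ_0014117 on LG4 (7759374 to 7760532, minus strand), at 106, 106 and 255 CPM (edgeR adjusted p = 4.97e-06, 1.6e-05 and 0.00133). The first of these was also listed in all laying and released libraries, at a mean of 145 and 153 CPM.

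Of those listed at 0 in caged libraries, ame_circ_0001442 on LG10 spans 74413 nt (5605442 to 5679854, plus strand) and had 159, 196 and 92.3 CPM in virgin libraries (edgeR adjusted p = 0.00257; 0.234 in DESeq2). It was listed at 0 in all laying and released libraries too. The next were ame_circ_0014344 on LG4 (9597115 to 9597567, minus strand), with 119, 45.1 and 143 CPM in virgin libraries, and ame_circ_0010209 on LG1 (4621309 to 4621685, plus strand), with 54.6, 105 and 126 CPM. Their edgeR adjusted p were 0.0103 and 0.0141. The call of ame_circ_0014344 was lost without virgin replicate 1 (0.0611) or 3 (0.0588), and that of ame_circ_0010209 without virgin replicate 3 (0.0711).

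A part of the abundant loops did not separate the groups. The most abundant circRNA over the caged and virgin libraries together, ame_circ_0017693 on LG7 (640672 to 648915, minus strand), had 35898, 25836 and 21636 CPM in caged libraries and 27471, 18951 and 26705 CPM in virgin libraries. The groups overlapped, and the log2 fold change was 0.38 with a 95% interval of -0.26 to 1.02 (edgeR adjusted p = 0.425). A 2-fold increase is just within this interval. For ame_circ_0013256 on LG4 (10004084 to 10004329, plus strand), with 9357, 7430 and 14015 CPM in caged libraries and 10913, 18425 and 12811 CPM in virgin libraries, the interval of -0.74 to 0.30 excluded a 2-fold difference. The same was true of ame_circ_0004652 on LG13 (5147066 to 5147943, minus strand), with 7707, 7689 and 5771 CPM in caged libraries and 8748, 7641 and 7623 CPM in virgin libraries (interval -0.43 to 0.46), and of ame_circ_0017657 on LG7 (593322 to 593835, minus strand), whose interval was -0.97 to 0.34. Intervals this narrow were found for 173 tested circRNAs (5.38%), and 930 (28.9%) had an interval within 4-fold, so for most circRNAs with no call a several-fold difference is not excluded.

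One abundant call was fragile. On the scaffold GL630373.1, ame_circ_0000149 (79029 to 79584, minus strand) had 19502, 31154 and 31917 CPM in caged libraries and 18728, 21764 and 20937 CPM in virgin libraries. Caged replicate 1 lay within the virgin range. The difference was 1.55-fold (edgeR adjusted p = 0.0356), and the call was lost with library totals (0.216), with DESeq2's size factors (0.0867) and without any 1 of caged replicates 2 and 3 and the 3 virgin replicates (0.0691 to 0.135).

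Many circRNAs overlap each other, as several loops can come from the exons of one gene. Tested circRNAs whose spans overlap on one strand were joined into 1654 loci, a locus being a stretch of genome that need not be 1 gene, and their reads were summed. Of these loci, 500 (30.2%) were called in edgeR's test, 303 (18.3%) higher in caged ovaries and 197 (11.9%) lower. With library totals in place of TMM the split was 202 higher and 297 lower. Loci of 2 or more circRNAs were called in 44.3% of 573, and loci of 1 circRNA in 22.8% of 1081. The cause of this difference was not tested. In 81 called loci no single circRNA had a call.

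The loci with the smallest p that were higher in caged ovaries lie on LG9, a scaffold, LG12, LG2 and LG14. The locus on LG2 (4622669 to 4807227, plus strand) was the largest source of reads in caged libraries, with 78066, 78764 and 72391 CPM in caged libraries and 11653, 20711 and 12635 CPM in virgin libraries. It was 6.47-fold higher (log2 2.69 ± 0.22, edgeR adjusted p = 2.99e-08), and 25 of its 31 tested circRNAs were called higher and none lower. Among the less abundant loops of this locus, ame_circ_0011788 (4779846 to 4797638) had 935 CPM in caged and 21.6 CPM in virgin libraries on average. In virgin libraries it held 0.298%, 0.145% and 0% of the locus reads, so this virgin mean rests on few reads and includes a 0. The locus on LG12 (6735589 to 6743431, plus strand) had 4790, 6474 and 5181 CPM in caged libraries and 1236, 1263 and 1150 CPM in virgin libraries (5.63-fold higher, edgeR adjusted p = 2.23e-08), with 6 of 7 circRNAs called higher. The locus on LG14 (1714098 to 1733063, plus strand) had 2230, 2600 and 2264 CPM in caged libraries and 397, 526 and 403 CPM in virgin libraries (6.78-fold higher, edgeR adjusted p = 7.68e-08). The loci on LG9 (10843189 to 10843764) and on GL634653.1 (5432 to 6423) are mostly made of ame_circ_0019528 and ame_circ_0000647, described above, and were 25.2-fold and 39.4-fold higher (edgeR adjusted p = 9.66e-09 and 9.87e-09). The log2 fold change on GL634653.1 was 5.30, and 6.11 without virgin replicate 3.

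Of the loci that were lower, that on LG2 (14879280 to 14889708, minus strand) had 169, 170 and 204 CPM in caged libraries and 1480, 1775 and 2048 CPM in virgin libraries. It was 7.73-fold lower (log2 -2.95 ± 0.26, edgeR adjusted p = 1.24e-07), nearly all through ame_circ_0011407, a loop of 248 nt. The locus on LG7 (1597826 to 1654071, plus strand) had 3237, 3428 and 2514 CPM in caged libraries and 20868, 17492 and 21340 CPM in virgin libraries, 5.19-fold lower (edgeR adjusted p = 8.67e-07), and holds ame_circ_0017314. Within it the loops that begin at 1597826 or 1604032 had log2 fold changes of -2.49 to -2.91, of which 3 of 5 were called, while ame_circ_0017318 and ame_circ_0017324, which begin further along, were at -0.27 and 0.53 with no call. The loci on LG14 (7020265 to 7023640), LG3 (2757360 to 2783262) and LG16 (2918356 to 2935277) were 3.83-fold, 4.19-fold and 3.3-fold lower (edgeR adjusted p = 3.03e-06, 7.77e-06 and 1.2e-05). No library of the groups overlapped in any of these loci.

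Loops of one locus mostly moved one way. Of the 97 loci with 2 or more called circRNAs, 60 had calls in the higher direction alone, 26 in the lower direction alone and 11 in both. Counted by pairs of circRNAs that share one back-spliced end, 275 of 2385 pairs had a call in both members, which were both higher in 230, both lower in 34 and opposite in 11. The 11 opposite pairs involve 18 circRNAs of 6 loci, and in 8 of them the longer loop was the higher one in caged ovaries. Pairs of one locus share loops and are not independent. How the authors' calling assigned reads to loops that share an end is not given.

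The share of a loop within its locus gives a measure that does not change when a whole locus rises or falls. In edgeR's test of unequal change within loci, 53 of 2134 circRNAs (2.48%) had a changed share, larger in caged ovaries for 34 and smaller for 19, and 32 of 573 loci (5.58%) had at least some unequal change. The 53 fell to between 21 and 29 without caged replicate 1 (24), caged replicate 2 (29), virgin replicate 2 (28) or virgin replicate 3 (21). The 4 loci with the smallest p are on LG16, LG8, LG1 and LG3.

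On LG16 (4458980 to 4468298, minus strand) the shortest loop at the first position, ame_circ_0007233 (4458980 to 4459495), was a smaller part of the locus in caged ovaries. It made up 4.65%, 5.65% and 5.72% of the locus in caged libraries, against 40.3%, 36.5% and 36.5% in virgin libraries (edgeR adjusted p = 3.55e-08). Its level was 174, 247 and 210 CPM in caged libraries and 899, 752 and 915 CPM in virgin libraries, 3.57-fold lower (edgeR adjusted p = 0.000132). With the same first position, ame_circ_0007234 (4458980 to 4465010) had 2308, 2935 and 2020 CPM in caged libraries and 809, 782 and 965 CPM in virgin libraries, 3.25-fold higher (edgeR adjusted p = 3.02e-05). Thus in caged ovaries the long loop was the main product of the locus, while in virgin ones the short and the long loop were about equally abundant. The share of ame_circ_0007234 itself averaged 61.3% in caged and 37.6% in virgin libraries, with no call in the share test (edgeR adjusted p = 0.276). A further loop, ame_circ_0007241 (4463131 to 4465010), was 3.68-fold higher (edgeR adjusted p = 0.00157). In laying and released libraries the short loop held 5.98% and 6.83% of the locus.

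On LG1 (18150632 to 18167182, minus strand) the locus as a whole had no call, with 934, 839 and 902 CPM in caged libraries and 1281, 1188 and 1385 CPM in virgin libraries (edgeR adjusted p = 0.535). Its makeup changed. The loop ame_circ_0008724 (18161283 to 18167182) held 59.1%, 75.5% and 69.2% of the locus in caged libraries and 9.69%, 17.7% and 9.7% in virgin libraries (edgeR adjusted p = 2.16e-05). Its level was 552, 634 and 624 CPM in caged libraries and 124, 211 and 134 CPM in virgin libraries, 4.6-fold higher (edgeR adjusted p = 5.23e-05). In this locus 4 loops were lower, among them ame_circ_0008720 (18160207 to 18161520), which was listed at 0 in caged libraries and had 69.5, 75.2 and 101 CPM in virgin libraries. This call had an adjusted p of 0.026 and was lost without any 1 of caged replicates 1, 2 and 3 and virgin replicates 1 and 3 (0.0656 to 0.0842). The calls of ame_circ_0008712 (18150632 to 18154104, edgeR adjusted p = 0.0129) and ame_circ_0008727 (18162658 to 18163282, edgeR adjusted p = 0.0474) were lost in several settings, up to 0.14 and 0.41 without the low-count filter.

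**Figure D3:**
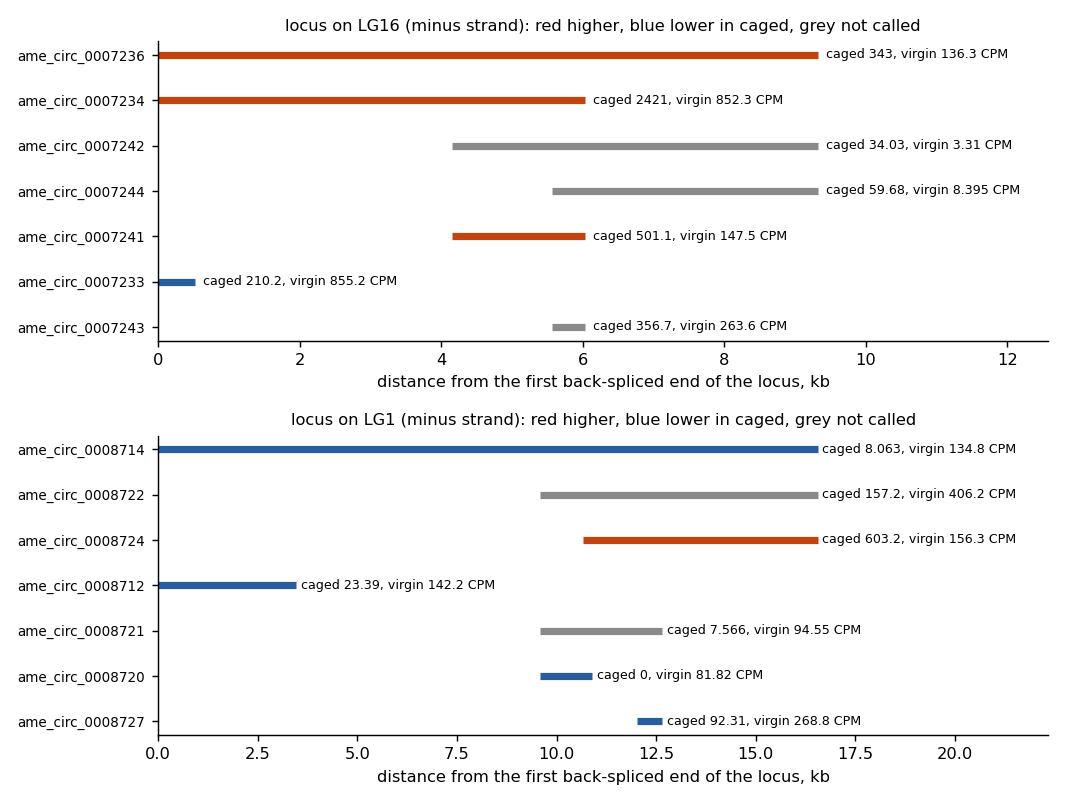
Tested circRNAs of the loci on LG16 (top) and LG1 at 18.15 Mb (bottom), drawn by distance in kb from the first back-spliced end, with mean CPM in caged and virgin libraries (n = 3 each); red is called higher in caged, blue lower and grey not called. On LG16 the loop ame_circ_0007233 at the left edge is lower while the longer loops from the same position are higher, and on LG1 ame_circ_0008724 is higher while 4 others are lower.

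On LG8 (8546045 to 8600528, minus strand) the locus was 3.72-fold higher (35230, 45404 and 61026 CPM in caged libraries and 15108, 16349 and 16060 CPM in virgin libraries, edgeR adjusted p = 1.34e-06), and its loops fell into groups by their last position. The loops that end at 8568048 or 8600528 were higher by 1.83 to 2.42 on the log2 scale. Of those that end at 8554151, ame_circ_0019203 was higher by 0.80 (edgeR adjusted p = 0.0172; 0.104 with library totals and 0.0594 to 0.113 without caged replicate 3, virgin replicate 1 or virgin replicate 3), and ame_circ_0019200 had 324, 440 and 482 CPM in caged libraries and 705, 767 and 487 CPM in virgin libraries, with no call (adjusted p = 0.276). Its share of the locus was 0.893 ± 0.0925% in caged and 4.13 ± 0.951% in virgin libraries (SD, n = 3 each, edgeR adjusted p = 3.31e-06). On LG3 (7299001 to 7301481, plus strand) the loops divided by their first position. Both loops that begin at 7300798 were called higher, led by ame_circ_0013083 with 532, 751 and 749 CPM in caged libraries and 44.7, 45.1 and 67.2 CPM in virgin libraries (14.4-fold, edgeR adjusted p = 1.16e-06), while the 3 loops that begin at 7299001 had no call. Its share was 53.4%, 57.1% and 55.5% in caged libraries and 9.78%, 10% and 9.64% in virgin libraries (edgeR adjusted p = 7.11e-05).

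**Figure D4:**
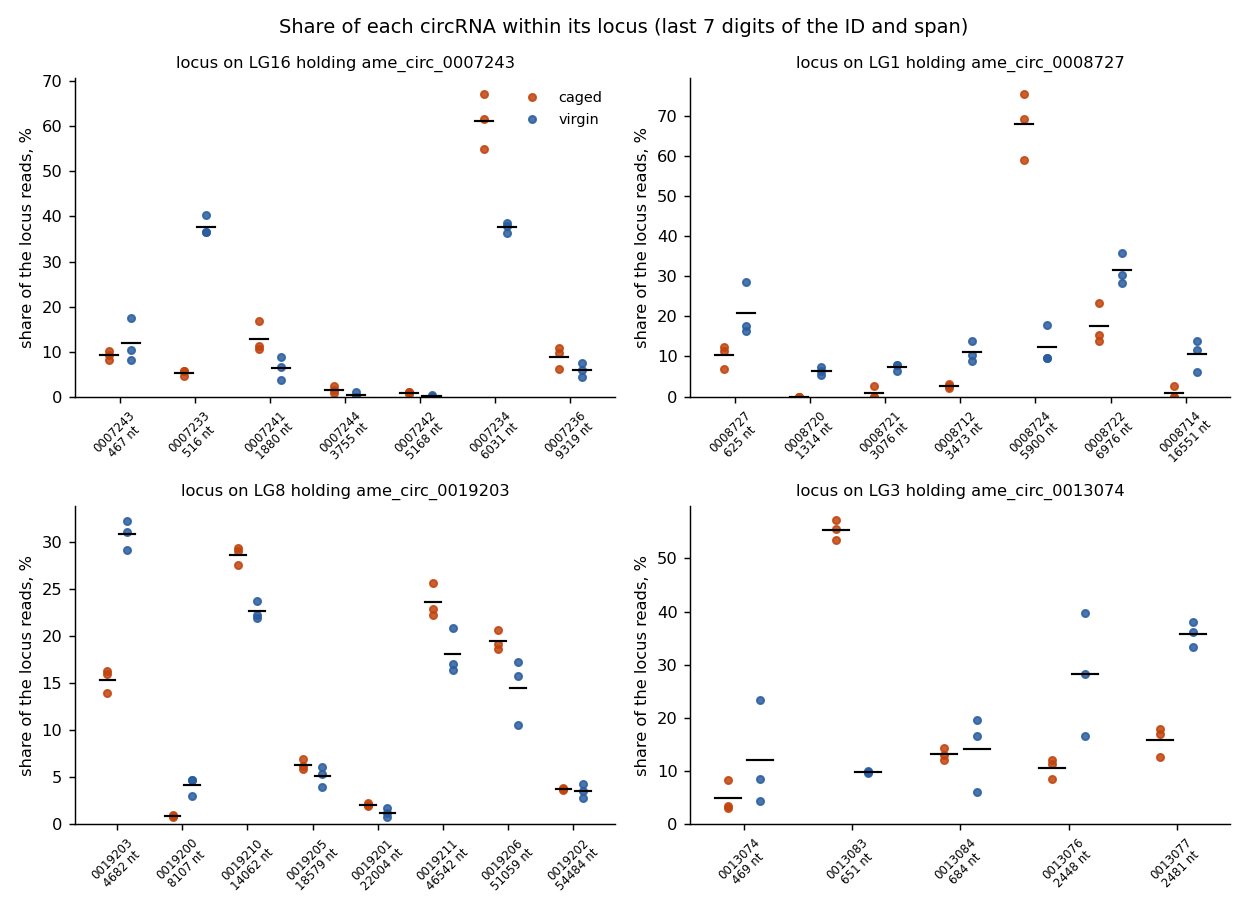
Share of the locus reads, in percent, of each circRNA of the 4 loci with the smallest p for unequal change, per library, caged (red) left of virgin (blue), ordered by span, with a bar at each mean. In the LG3 panel ame_circ_0013083 sits at 53.4% to 57.1% in caged libraries and at 9.64% to 10% in virgin libraries.

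In another pair of loci, calls in both directions came with a smaller change of the whole. On LG3 (1090193 to 1190378, plus strand) 7 of 37 loops were higher and 3 lower. These counts are near the shares over all tested circRNAs, 13.4% higher and 7.96% lower. The LG3 locus had 17378, 15994 and 14804 CPM in caged libraries and 11111, 11867 and 9973 CPM in virgin libraries (1.84-fold higher, edgeR adjusted p = 0.00135). Its main loop, ame_circ_0012223 (1091330 to 1140732), was 2.36-fold higher (edgeR adjusted p = 0.000293), while ame_circ_0012217 of 244 nt, which begins at the same position, had 121, 135 and 204 CPM in caged libraries and 645, 827 and 579 CPM in virgin libraries (edgeR adjusted p = 0.000593). The calls of ame_circ_0012384 (higher, adjusted p = 0.0467) and ame_circ_0012215 (lower, 0.0265) in this locus were lost in several settings, up to 0.201 without caged replicate 3 and 0.233 without virgin replicate 1. On LG1 (20453409 to 20487730, plus strand) ame_circ_0008992 had 885, 687 and 851 CPM in caged libraries and 3823, 3339 and 2670 CPM in virgin libraries (3.54-fold lower, edgeR adjusted p = 4e-05). In the same locus ame_circ_0008990 had 2109, 1585 and 2156 CPM in caged libraries and 1162, 1579 and 965 CPM in virgin libraries (edgeR adjusted p = 0.0443). This is the one higher call of the locus, and it was lost with library totals (0.138), with DESeq2's size factors (0.0781), in DESeq2 (0.0749), with the stricter filter (0.054) and without caged replicate 1 (0.103), caged replicate 3 (0.105), virgin replicate 1 (0.0993) or virgin replicate 3 (0.197).

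The share of ame_circ_0008990 within its locus was highest in the caged group. It was 40.0%, 39.0% and 46.6% in caged libraries and 14.2%, 19.7% and 15.9% in virgin libraries (edgeR adjusted p = 0.00491). Laying libraries averaged 25.7% and released libraries 16.7%, and the caged share was not tested against these. For ame_circ_0013083 the laying and released means were 55.0% and 51.2%, beside 55.3% in caged libraries. For ame_circ_0008724 they were 82.8% and 71.0%, beside 67.9%, and each laying library (86.0%, 86.0% and 76.4%) was above every caged one. The LG1 locus of ame_circ_0008990 (20453409 to 20487730) had no call as a whole (edgeR adjusted p = 0.217). This locus had 5278, 4067 and 4630 CPM in caged libraries and 8207, 8017 and 6078 CPM in virgin libraries. It was called lower with library totals (0.00714) and in DESeq2 (0.0283). Its lower loop ame_circ_0008982 (adjusted p = 0.0464) had no call in several settings, up to 0.255 without virgin replicate 1.

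The loops that were higher in caged ovaries spanned more of the genome than those that were lower. The span here is the distance between the back-spliced ends, introns included, and not the length of the RNA. The median span was 2626 nt for the circRNAs called higher, 889.5 nt for those called lower and 1962 nt for all tested. Spans of up to 500 nt were found in 10.4% of the higher, 35.2% of the lower and 19.8% of all tested circRNAs, and spans over 10000 nt in 26.2%, 12.1% and 20.1%. Over the 13 other settings the median of the higher list was between 2381 and 2969.5 nt and that of the lower list between 643 and 1120 nt. Loops of one locus share their ends and are not independent.

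The reads of each library, taken without regard to calls, were in the same order. Loops spanning over 10000 nt took up 22.3%, 21.9% and 22.6% of the reads in caged libraries and 14.6%, 14.5% and 14.6% in virgin libraries. The groups were far apart and each was tight. The two-sided exact permutation test gave p = 0.1, the smallest that 3 against 3 libraries allow (0.133 adjusted over the 4 measures of this kind). Laying and released libraries averaged 20.7% and 19.9%. Loops of up to 500 nt took up 18.9 ± 0.296% in caged and 25.1 ± 2.03% in virgin libraries (SD, n = 3 each). The read-weighted median span was 2211, 2009 and 2009 nt in caged libraries and 1294, 1086 and 1202 nt in virgin libraries (exact permutation p = 0.1).

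A few loci carried much of this difference. Without the 3 loci with the most reads, the LG2 and LG8 loci above and one on LG7 (630579 to 648915) with no call (log2 0.34, 95% interval -0.22 to 0.91), loops over 10000 nt took up 15.8 ± 1.66% of the remaining reads in caged and 13.6 ± 0.612% in virgin libraries (SD, n = 3 each). That is a difference of 2.19 percentage points, against 7.70 with them. The groups still did not overlap. The read-weighted median span was then 1374 nt in caged and 1032 nt in virgin libraries.

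**Figure D5:**
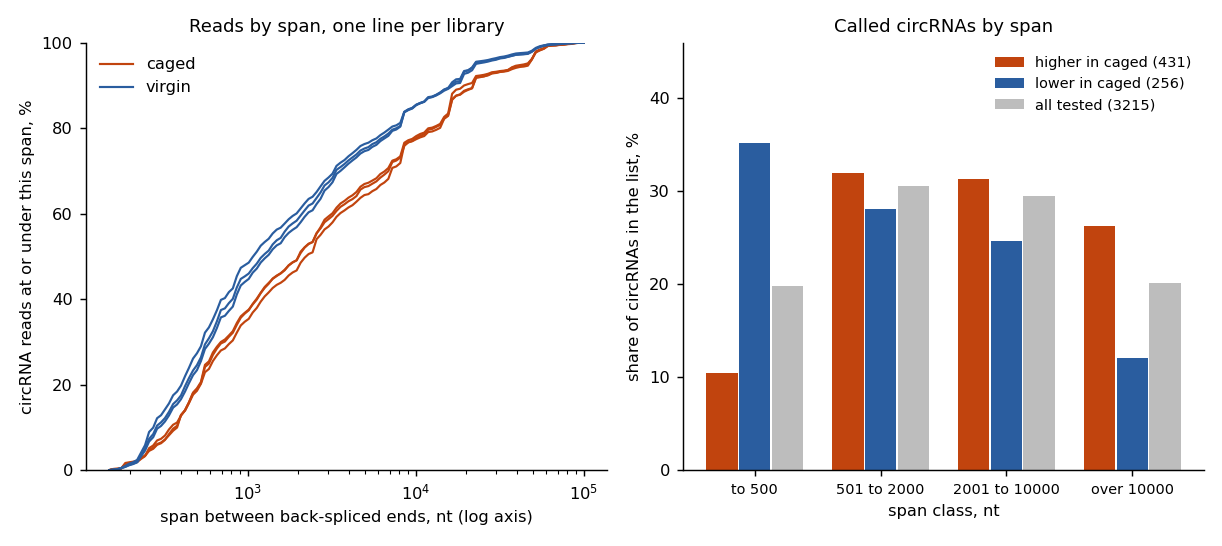
Left, cumulative percent of circRNA reads by span in nt (log axis), one line per library, caged red and virgin blue; right, percent of circRNAs in 4 span classes for those called higher in caged, called lower and all tested. Over most of the range the caged lines run below the virgin ones, and up to 500 nt the lower list holds 35.2% against 10.4% of the higher list.

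The concentration of reads and the number of loops were compared per library. The 10 most abundant circRNAs of each library took up 18.7%, 17.8% and 17.6% of the reads in caged libraries and 15.1%, 14.4% and 14.7% in virgin libraries (exact permutation p = 0.1), with no overlap. The number of circRNAs listed, with each library thinned to 66487 reads, was 4768, 4697 and 4788 in caged libraries and 5867, 4059 and 5137 in virgin libraries (exact permutation p = 0.7). The virgin libraries spread on both sides of the caged ones. Virgin replicate 2, the lowest, sets the thinning depth and so keeps the table's smallest count of 2, while thinned libraries also list loops at 1 read. Counting loops with at least 2 reads after thinning, the difference of means, caged minus virgin, was -728 (exact permutation p = 0.1), and over the tested circRNAs alone it was 192 (exact permutation p = 0.1). The tested circRNAs were filtered over all 12 libraries and hold 95.3% to 95.5% of caged and 91.8% to 92.8% of virgin reads. A count within them is tilted toward caged libraries and cannot decide the direction. The sign of the difference depended on how loops were counted, and no direction is drawn from it.

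Calls were found on every chromosome, and LG2 and LG1, which hold the most tested circRNAs, are given here. On LG2, 63 of 289 tested circRNAs (21.8%) were higher and 13 (4.5%) lower, and its share of reads was 15.1 ± 0.828% in caged and 9.2 ± 0.618% in virgin libraries (SD, n = 3 each). The locus at 4622669 to 4807227 accounts for 25 of the 63. On LG1, 52 of 500 (10.4%) were higher and 58 (11.6%) lower, and its share of reads was 12.7 ± 0.228% in caged and 17.1 ± 0.458% in virgin libraries. Over all tested circRNAs the shares called were 13.4% higher and 7.96% lower. The split by direction depends on the scaling, as above, and was not recounted per chromosome with library totals.

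Between caged and laying ovaries 3 of 3215 circRNAs (0.0933%) were called in the same fit, and these 3 had no call between caged and virgin ovaries. On LG15, ame_circ_0006114 (3022811 to 3027767) averaged 532 ± 303 CPM in caged, 102 ± 54.8 CPM in laying and 519 ± 138 CPM in virgin libraries (SD, n = 3 each). Its caged and virgin libraries overlapped (edgeR adjusted p = 0.792). On LG2, ame_circ_0011147 (13345342 to 13346062) averaged 157 ± 66.4 CPM in caged and 64.0 ± 13.1 CPM in virgin libraries, and was listed at 0 in all laying libraries (edgeR adjusted p = 0.152 for caged against virgin). On LG5, ame_circ_0015433 (5907191 to 5908645) was listed in 1 caged library and in no virgin library, and averaged 288 ± 74.8 CPM in laying libraries (edgeR adjusted p = 0.37 for caged against virgin). The caged against laying and the caged against virgin comparison share their caged libraries.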

How the data were processed

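CircRNA reads were measured in ovaries of 12 samples, of which 3 caged and 3 virgin ones are compared. Per the labels' protocols, ribosomal RNA was removed from 5 µg of total RNA, linear RNA was digested with RNase R, and directional libraries were sequenced as 150 bp paired-end reads, with Amel_4.5 as the genome. RNase R favours loops that resist it, so levels are not those of the untreated RNA. The submitters' processing notes name Bowtie. The circRNA caller and its filters are among the steps not given in the sources used here.

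In 1 table, a count per circRNA and library and a column headed TPM were deposited by the authors. This deposited column equals each count over its library's total, scaled to 1000000 (CPM), to within 4.989e-06, with no length term. Whether starts count from 0 or 1 is not given, so spans are exact to 1 nt. Totals were 66487 to 206697 reads per library and limit the precision, most in virgin replicate 2.

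The tests on counts used R 4.3.3 with edgeR 4.0.16 (quasi-likelihood, TMM, group as the one term, all 12 libraries in 1 fit so that they share the estimate of spread). Low counts were filtered by filterByExpr (min.count 5, min.total.count 15). SE is the log2 fold change over the square root of F, and intervals are 95%. Fold changes use TMM scaling and CPM use library totals, so a fold can differ from the ratio of CPM means. Loci were built with GenomicRanges 1.54.1 and igraph 2.1.4, and shares within loci were tested with edgeR's diffSpliceDGE, with a Simes p per locus. Values per library used an exact permutation test. The alternatives were library totals, DESeq2 1.42.0 and its size factors, other filters, the compared groups alone, a replicate block, loci by shared ends and leaving out each replicate. P-values measure the spread between these samples, which may be technical.

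The circRNAs named are, by rule, first the 6 most abundant called per direction without overlap between the groups. Next are the 4 called without overlap that have the largest fold change per direction among those read in all 6 libraries. Then come the 3 most abundant called per direction listed at 0 in the other group, and the 5 most abundant in all. Last are the 3 most abundant with an interval within 2-fold, and the leading members of the named loci. Named loci are the 5 of 2 or more circRNAs with the smallest p per direction, 4 with calls both ways and 4 with the smallest Simes p. Others named, such as ame_circ_0011407, ame_circ_0011788 and ame_circ_0017318, were chosen after their values were seen. The members, rules and tests were chosen with earlier results of these data known. No circRNA was matched to a gene (0 matches), since the gene table is of another assembly, so marker lists were not used and no sequence is shown.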

Additional observations from a re-analysis of the deposited data

How the results depend on the processing

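Leaving out each replicate in turn gave 456 to 573 called circRNAs against 687, 383 to 436 called loci against 500, and 21 to 39 circRNAs with a changed share against 53; fewer samples enter these fits. Of the 456 without virgin replicate 3, 436 were among the 687. The other settings gave 519 to 742 circRNAs, 352 to 514 loci and 46 to 65 shares. The replicate block gave 596 circRNAs, 437 loci and 46 shares. Same-numbered caged and virgin libraries correlated at 0.083, 0.036 and -0.015 in their deviations. Caged replicates 1 and 2 correlated best with their own number, the latter at 0.036 against 0.035, and caged replicate 3 did not. Values this small from 3 libraries per group cannot decide whether the numbers pair the samples, and the labels name no pairing. Of the values of named items under these settings, 566 for circRNAs, 183 for loci and 44 for shares stayed on the same side of the threshold. A call was lost in 69 values for circRNAs and gained in 2 for loci. No value with a call in the main or the other setting changed direction. Direction was not compared for values with no call in both. The difference in circRNAs listed after thinning (-270, caged minus virgin) turned to 192 over tested circRNAs, 146 without thinning and 153 without virgin replicate 1, and was -709 without virgin replicate 2 and -728 with at least 2 reads after thinning. The exact permutation p was 0.1 to 0.8 in these, and 0.1 is the smallest that 3 against 3 allow. Removing the 3 loci with the most reads was chosen after seeing the data. Virgin replicate 2, with 66487 reads, limits what can be seen of rare loops, and a 0 in the table sets no upper limit.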
